A study of Rattus norvegicus with 24 samples.

Results

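The transcripts examined here encode 3 ubiquitin ligases of muscle wasting (Fbxo32, Trim63 and Fbxo30) and 3 transcription factors placed upstream of them (Foxo1, Foxo3 and Klf15). They were taken by gene symbol, and all 6 were present among the 15273 gene symbols of the 20027 deposited transcripts, each as a single protein-coding transcript. RNA was sequenced from tibialis anterior, the main ankle dorsiflexor, of 12 male Wistar rats. In every rat the left muscle was trained by an implanted stimulator that recruited the dorsiflexors against their antagonists once a day, and the right muscle was left unstimulated as the contralateral control. Groups of 3 rats were trained for 2, 10, 20 or 30 days, which gave 12 trained and 12 contralateral muscles, and muscles were removed shortly after the last session. All rats carried the implant, no rat without training was analysed here, and each contralateral muscle came from a trained animal. Levels are TPM-type values, scaled by the authors for transcript length and here by 1 factor per library, and differences are given on the log2(value + 1) scale, which understates the change of low transcripts.

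Fbxo32 (MAFbx, or atrogin-1) and Trim63 (MuRF1) are muscle ubiquitin ligases whose transcripts are known to rise when muscle wastes after denervation, unloading, fasting or glucocorticoid treatment. Fbxo32 and Fbxo30 (MUSA1) are F-box proteins, which bring substrates to a cullin-based ligase complex, whereas Trim63 is a RING ligase that acts on thick filament proteins. FoxO factors activate such genes when they are in the nucleus, and the kinase Akt, downstream of insulin and insulin-like growth factor, keeps them out of it. Klf15 is a Kruppel-like factor induced by the glucocorticoid receptor and is known to drive enzymes of branched-chain amino acid breakdown. RNA sequencing reads none of the phosphorylation of FoxO proteins, only the abundance of their transcripts.

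In genome assembly Rnor_6.0, which the authors used, the transcripts lie at chr7:98063735-98098269 on the minus strand (Fbxo32), chr5:152533349-152547180 on the plus strand (Trim63), chr1:5366379-5388070 on the plus strand (Fbxo30), chr2:141451234-141527017 on the plus strand (Foxo1), chr20:46428124-46519145 on the plus strand (Foxo3) and chr4:122365093-122377660 on the plus strand (Klf15). The RefSeq table of promoters, made on assembly GRCr8, held Trim63, Klf15, Fbxo30 and Foxo1. The 250 bases before the annotated start are shown for Trim63 (chr5:151816986-151817235, plus strand) and Klf15 (chr4:124522765-124523014, plus strand), because these were the 2 transcripts that moved in the same direction in every rat. Capitals mark matches, on either strand, to the FoxO motif GTAAACA, the glucocorticoid receptor hexamer TGTTCT or the E-box CACGTG.
Trim63: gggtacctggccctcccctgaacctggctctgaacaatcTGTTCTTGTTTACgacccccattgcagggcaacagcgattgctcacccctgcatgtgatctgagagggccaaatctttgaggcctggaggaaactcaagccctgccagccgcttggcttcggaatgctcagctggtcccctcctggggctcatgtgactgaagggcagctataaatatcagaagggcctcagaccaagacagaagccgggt
Klf15: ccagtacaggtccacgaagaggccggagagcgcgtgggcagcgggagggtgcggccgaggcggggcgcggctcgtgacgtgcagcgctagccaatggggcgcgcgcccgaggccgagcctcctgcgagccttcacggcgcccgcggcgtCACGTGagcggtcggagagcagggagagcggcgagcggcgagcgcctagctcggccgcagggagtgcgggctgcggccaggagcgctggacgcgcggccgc

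The Trim63 promoter held the hexamer from -211 to -206 and a FoxO motif on the minus strand (TGTTTAC) from -205 to -199, counted from the annotated start, so that the motifs touched without overlapping. FoxO1 and the glucocorticoid receptor are known to act together at this promoter. Among 33469 promoters of this length, 3.21% held the FoxO motif and 17.5% the hexamer. The Klf15 promoter held an E-box from -101 to -96, a motif present in 5.59% of promoters and bound by clock and Myc family proteins. The hexamer palindrome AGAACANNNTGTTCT was present in 4 promoters, or 0.012%, and in neither of those shown. None of the motifs was found in the Fbxo30 and Foxo1 windows, and the matches are descriptions of sequence that were not tied to binding here.

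Libraries did not differ in deposited total (634431 in each), so depth cannot be read from them and the precision it gives is unknown. Mitochondrial transcripts took 27.8% to 43.7% of contralateral and 23.4% to 43.9% of trained totals, and 4 of the 6 muscles of 30 days lay at the top of this range. The trained muscles of 30 days held 39.9%, 43.0% and 43.9% with scaling factors of 0.915, 0.807 and 0.848. The contralateral muscles held 43.7%, 34.6% and 29.7% with factors of 0.778, 0.959 and 1.08 in the same order of rats. Fibre markers were abundant throughout, 7 of 9 listed being measured with a summed level from 53099 to 90028. The sum hides single fibre markers that moved in opposite directions. At 20 days the mean of Pvalb was 2042 in contralateral and 271 in trained muscles, and that of Mb 6674 and 11079. Macrophage and fibroblast markers were higher in trained muscles: the summed level of 6 macrophage genes ran from 6.43 to 16.25 in contralateral and from 19.2 to 50.1 in trained muscles, and that of 6 fibroblast genes from 75.6 to 254.5 and from 303.8 to 987.3. In bulk tissue, fewer cells of a type and less RNA per cell cannot be told apart, and the part of these cell types in the results below was not tested.

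**Figure D1:**
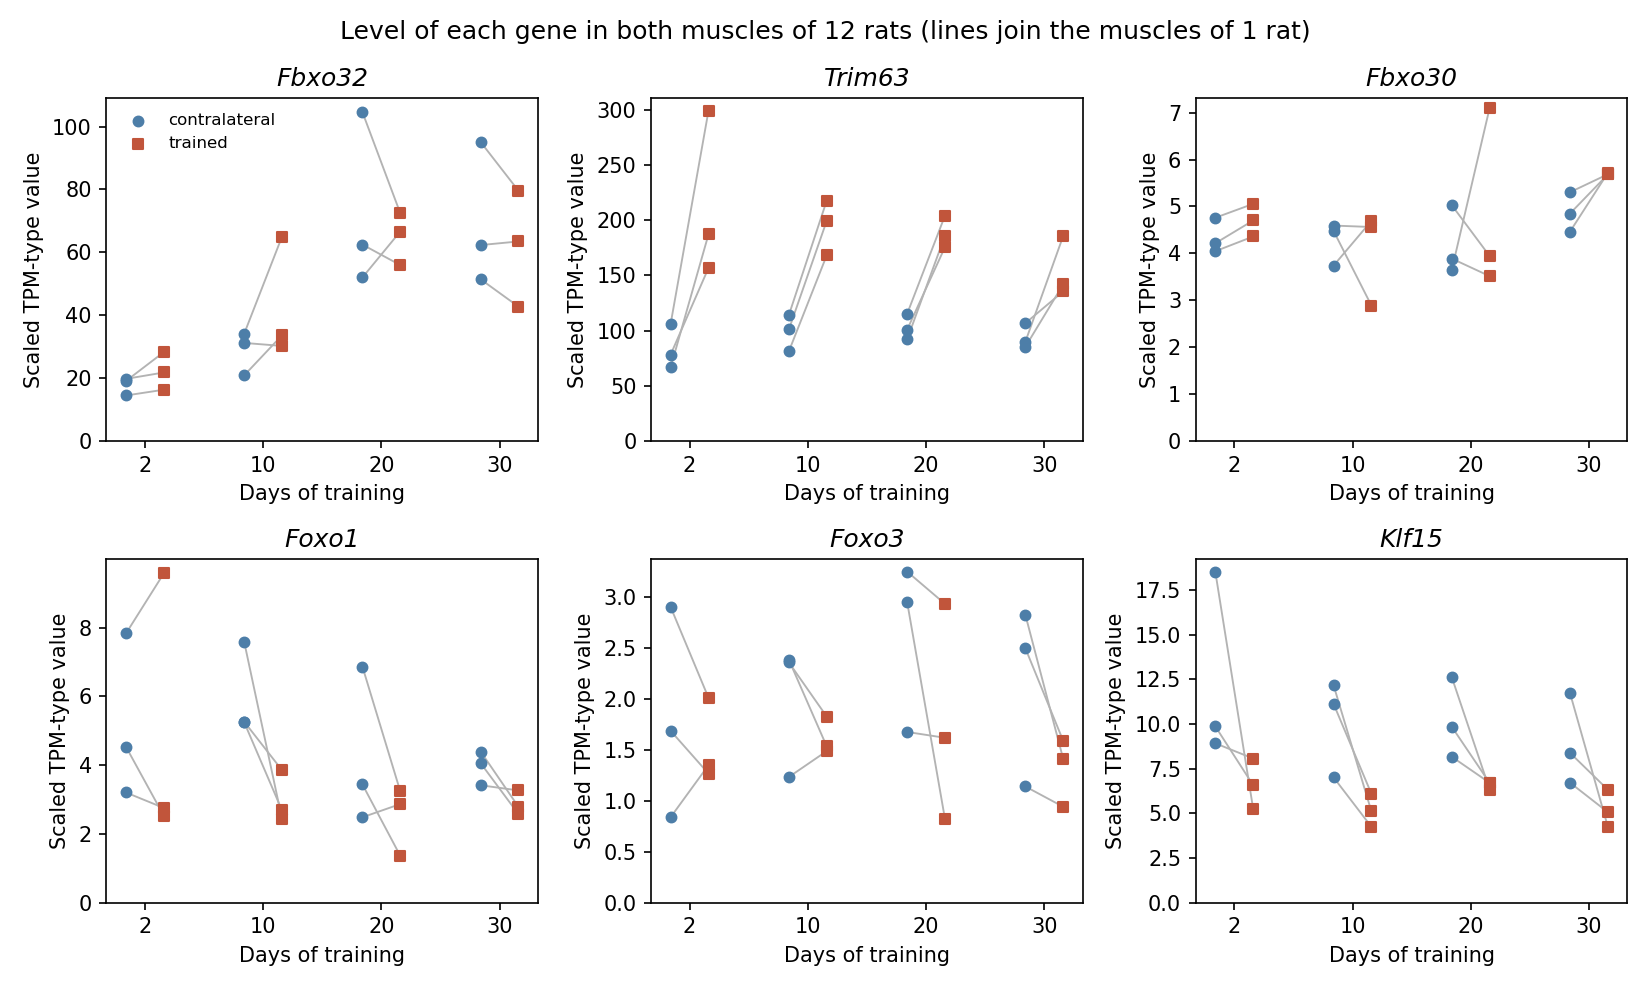
Scaled TPM-type value of each gene (vertical axis, from 0) against days of training, with contralateral muscles as blue circles, trained muscles as red squares and a line joining both muscles of 1 rat. All 12 lines rise for Trim63 and fall for Klf15, and Fbxo32 is higher at 20 and 30 days than at 2 days in both muscles.

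Trim63 was the most abundant of the transcripts and rose with training in all 12 rats. At 2 days its level was 67.0, 106.4 and 78.5 in the contralateral muscles and 187.1, 298.9 and 156.7 in the trained muscles of the same rats. At 10 days the values were 101.2, 114.3 and 81.5 against 199.4, 217.7 and 168.2. The trained muscles stood above all contralateral muscles at both times. At 20 days the contralateral muscles held 101.0, 115.3 and 92.1 and the trained muscles 175.6, 204.1 and 186.0. At 30 days they held 90.0, 85.4 and 106.8 against 185.7, 141.9 and 135.6. The lowest trained muscle (135.6) exceeded the highest contralateral muscle (115.3) of any time, and the groups did not overlap at any of the 4 times, as was so in this direction for 5.13% of the 11196 genes tested.

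The paired difference of Trim63 after 2, 10, 20 and 30 days was 1.31, 0.98, 0.87 and 0.70 (SE 0.14, n = 3 rats each), or 2.48-, 1.97-, 1.83- and 1.63-fold in value + 1. By limma with Benjamini-Hochberg adjustment over all genes, adjusted p was 3.70e-05, 3.28e-04, 9.95e-04 and 0.00611. It was the only member higher at each time, 1 of 6, beside 11.8%, 12.1%, 9.94% and 7.21% of all genes in the same order. A gene was higher in all 12 pairs for 8.45% of those tested. Averaged over the 4 times the difference was 0.97 (95% interval 0.82 to 1.12, adjusted p = 1.72e-07), and 1 of 6 members was higher on this mean, beside 21.2% of all genes. The day 30 call was lost without the day 30 replicate 1 rat (0.53, adjusted p = 0.0569), with values as deposited (0.58, adjusted p = 0.102), and in the gene-level table (0.41, adjusted p = 0.221), in which the day 20 call was lost too (0.67, adjusted p = 0.0744).

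The estimates of Trim63 ran downward from 2 to 30 days, but the decline did not pass. The response at 30 days was 0.61 below that at 2 days (SE 0.20), which gave an adjusted p of 0.110 by limma (0.00832 before adjustment), and the F test over the 4 responses gave an adjusted p of 0.301. By this F test (limma) 0 of 6 members differed in response among the times, beside 1.14% of all genes. At unadjusted p under 0.05 it was 1 of 6, Trim63, beside 16.5% of all genes. In contralateral muscles the mean level of Trim63 lay between 84.0 and 102.8 at the 4 times and did not pass the test among them (adjusted p = 0.750).

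Klf15 fell with training in all 12 rats. Contralateral levels were 8.91, 18.5 and 9.86 at 2 days, and the trained muscles of the same rats held 8.06, 5.24 and 6.57. At 10 days the values were 12.2, 11.1 and 7.01 against 5.10, 6.09 and 4.24. The contralateral muscle of the day 2 replicate 2 rat was the highest of all 24 muscles. At 20 days the contralateral values were 9.84, 12.6 and 8.16 and the trained values 6.70, 6.33 and 6.70. At 30 days the values were 8.38, 6.71 and 11.7 against 6.32, 5.06 and 4.24. The groups did not overlap at any of the 4 times, as was so in this direction for 3.06% of genes tested, and a decrease in all 12 pairs occurred for 6.57% of them.

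The paired difference of Klf15 was -0.77 at 2 days (SE 0.25, n = 3 rats, adjusted p = 0.0431), -0.83 at 10 days (adjusted p = 0.0315), -0.55 at 20 days (adjusted p = 0.155) and -0.66 at 30 days (adjusted p = 0.107), each with the same SE and by limma. The difference over the 4 times together was -0.70 (95% interval -0.97 to -0.43, adjusted p = 4.94e-04), or 0.615-fold in value + 1. It stayed below an adjusted p of 0.05 under every alternative run. The calls at single times were less firm. Without the day 2 replicate 2 rat the day 2 difference was -0.33 (adjusted p = 0.464), and the day 30 difference then passed (adjusted p = 0.0392). The day 2 call was also lost without the day 2 replicate 3 rat (-0.89, adjusted p = 0.0868) and, at adjusted p from 0.05003 to 0.0546, without the day 10 replicate 2 or 3 or the day 20 replicate 1 or 3 rat. The day 10 call was lost without the day 10 replicate 1 (-0.69, adjusted p = 0.184), replicate 2 (-0.86, adjusted p = 0.0992) or replicate 3 rat (-0.94, adjusted p = 0.0638). Both calls were lost with values as deposited, with a pseudocount of 0.1, without the filter and in the gene-level table (-0.42 and -0.48). Klf15 did not pass the F test of the response among the times (adjusted p = 0.935), nor that of contralateral muscles (adjusted p = 0.835).

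Foxo1, a FoxO factor that responds to insulin signalling and glucocorticoids, was lower in the trained muscle of 10 of 12 rats. At 2 days contralateral levels were 7.83, 4.53 and 3.20 and trained levels 9.58, 2.52 and 2.75. At 10 days they were 5.25, 7.58 and 5.26 against 2.68, 2.43 and 3.85. The day 2 replicate 1 rat had the highest Foxo1 in both of its muscles. At 20 days the values were 3.44, 6.87 and 2.48 against 1.36, 3.24 and 2.87. At 30 days they were 3.41, 4.06 and 4.39 against 3.26, 2.57 and 2.79. The paired difference was -0.18 at 2 days (adjusted p = 0.612), -0.82 at 10 days (adjusted p = 0.0226), -0.55 at 20 days (adjusted p = 0.119) and -0.35 at 30 days (adjusted p = 0.352), with an SE of 0.23 by limma.

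Over the 4 times the difference of Foxo1 was -0.48 (95% interval -0.72 to -0.23, adjusted p = 0.00422), or 0.719-fold in value + 1, and this passed under every alternative run. The day 10 call did not pass without the day 10 replicate 1 rat (-0.85, adjusted p = 0.0843) or the replicate 2 rat (-0.57, adjusted p = 0.191), with values as deposited (-0.76, adjusted p = 0.0684), or without the pairing, against 12 pooled (-0.51, adjusted p = 0.173) or time-matched contralateral muscles (adjusted p = 0.116). The day 20 difference passed without the day 20 replicate 3 rat (-0.90, adjusted p = 0.0286). Among the 6 transcripts, those lower at adjusted p under 0.05 were Klf15 at 2 days (1 of 6, beside 9.80% of all genes), and Klf15 and Foxo1 at 10 days (2 of 6, beside 8.0%). None passed at 20 or 30 days by limma, beside 7.42% and 5.09% of all genes. At unadjusted p under 0.05, 2 of 6 members were lower at 20 days (14.8% of all genes) and 1 of 6 at 30 days (12.6%).

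Foxo3, the FoxO factor most tied to Fbxo32 and autophagy genes, was the least abundant of the transcripts, from 0.839 to 3.25 in contralateral and from 0.822 to 2.93 in trained muscles. It was lower in 10 of 12 trained muscles, with overlap of the groups at each time. Its paired difference was -0.089, -0.17, -0.42 and -0.41 at 2, 10, 20 and 30 days (SE 0.21), none of which passed (lowest adjusted p = 0.184). The mean over the 4 times was -0.27 (95% interval -0.49 to -0.051, adjusted p = 0.0456). That call was lost in 13 of the alternatives run, among them values as deposited (adjusted p = 0.0774) and the removal of any of 7 single rats, where adjusted p reached 0.103 without the day 20 replicate 1 rat. With Klf15, Foxo1 and Foxo3 counted, 3 of 6 members were lower on the mean of the 4 times, beside 22.2% of all genes.

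Fbxo30 showed no difference that passed. Its level ran from 3.65 to 5.30 in contralateral and from 2.89 to 7.10 in trained muscles, and its paired difference was 0.096, -0.079, 0.13 and 0.19 at 2, 10, 20 and 30 days (SE 0.18, lowest adjusted p = 0.549). At 30 days the 3 trained muscles held between 5.68 and 5.72 and the 3 contralateral muscles between 4.47 and 5.30, a difference that did not pass (limma, adjusted p = 0.549). The share of all genes without overlap at that time alone was not counted. The mean over the 4 times was 0.085, with a 95% interval from -0.11 to 0.28.

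**Figure D2:**
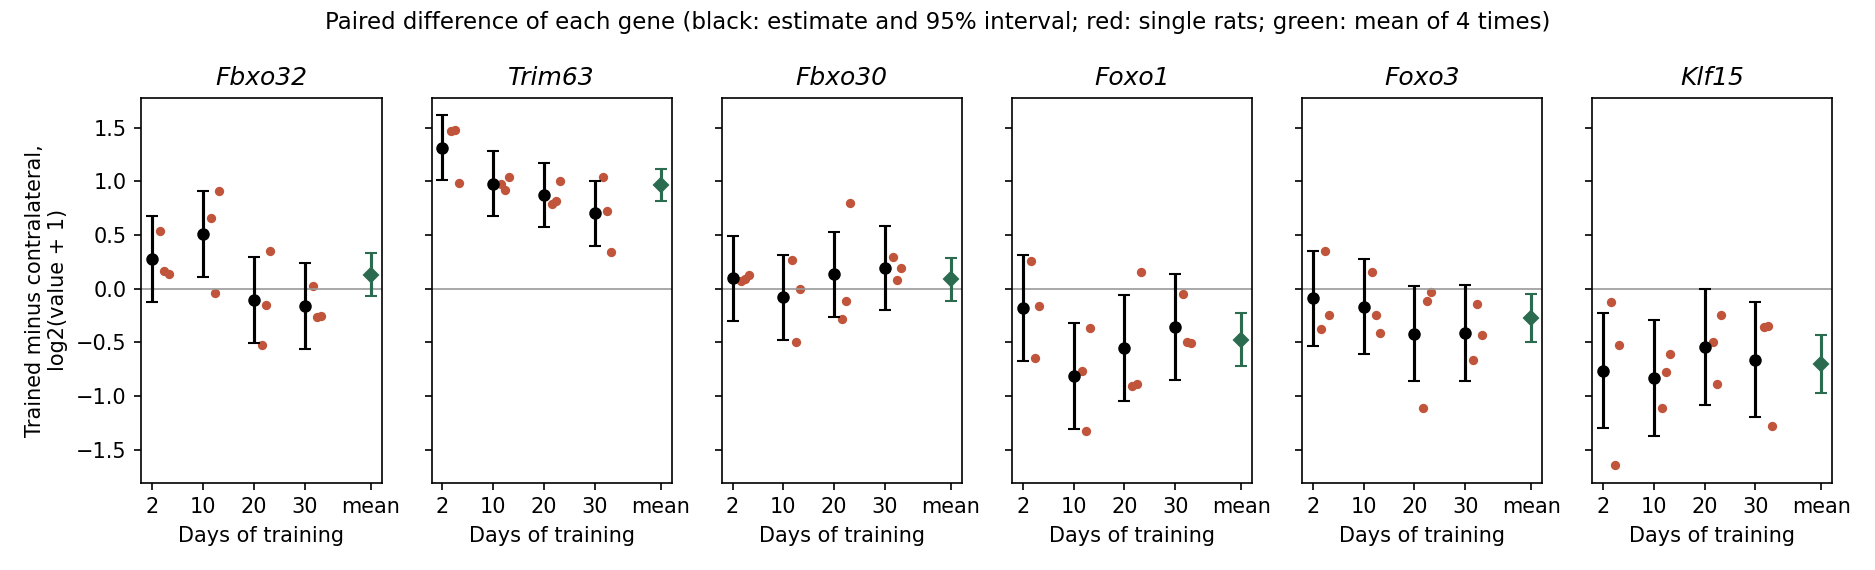
Trained minus contralateral difference on the log2(value + 1) scale (vertical axis) at each number of days, with the limma estimate and its 95% interval in black, single rats in red and the mean of the 4 times in green. Trim63 lies above 0 at every time, Klf15 below 0 at every time, and the intervals of Fbxo30 cross 0.

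Fbxo32 varied with the time point in both muscles. Contralateral levels were 19.2, 14.6 and 19.8 at 2 days and 20.96, 31.3 and 34.2 at 10 days. They were 104.6, 62.5 and 52.1 at 20 days and 62.3, 51.5 and 95.1 at 30 days. The lowest contralateral value of 20 and 30 days was thus 51.5, and the highest of 2 and 10 days 34.2. This split was not a planned comparison, and the share of all genes that show it was not counted. The trained muscles held 28.3, 16.4 and 21.9 at 2 days and 33.7, 30.3 and 65.0 at 10 days. At 20 days they held 72.5, 56.0 and 66.6, and at 30 days 63.5, 42.8 and 79.6. Trained and contralateral muscles overlapped at each of the 4 times.

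The paired difference of Fbxo32 was 0.28 at 2 days (adjusted p = 0.316), 0.51 at 10 days (adjusted p = 0.0707), -0.11 at 20 days (adjusted p = 0.731) and -0.16 at 30 days (adjusted p = 0.624), with an SE of 0.19 by limma. It was higher in the trained muscle of 7 of 12 rats. The mean over the 4 times was 0.13 (95% interval -0.071 to 0.33, adjusted p = 0.286). Without the day 10 replicate 2 rat the day 10 difference was 0.78 (adjusted p = 0.0195). Against all 12 contralateral muscles pooled, the control group the study used, the sign of the difference turned at 3 times, to -0.83 at 2 days, 0.70 at 20 days and 0.60 at 30 days (adjusted p = 0.159, 0.280 and 0.364). The pooled controls hold muscles of all 4 times.

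The mean contralateral level of Fbxo32 after 2, 10, 20 and 30 days was 17.9 ± 2.87, 28.8 ± 6.95, 73.0 ± 27.8 and 69.6 ± 22.7 (SD, n = 3 each). It was the only member that differed among contralateral muscles of the 4 times (limma F test, adjusted p = 0.0437), 1 of 6 beside 0.0625% of all genes. Relative to 2 days it was higher by 1.92 at 20 days (SE 0.28, adjusted p = 0.0449) and by 1.87 at 30 days (adjusted p = 0.0335), whereas 20 and 30 days were not told apart (-0.052, adjusted p = 0.992). The adjusted p was 0.133 with values as deposited, 0.120 with a pseudocount of 0.1, 0.128 without the filter and 0.0589 with the highest transcript of each gene, and between 0.0415 and 0.150 when single contralateral muscles were left out. The call was lost in 8 of those 12 removals (any muscle of 2 or 30 days, or replicate 2 of 10 or 20 days). Each time point is a separate set of 3 rats, so that days of training and the rats cannot be told apart here.

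The trained muscles gave the same order. Among the 4 trained groups, compared without their contralateral muscles, Fbxo32 differed (limma F test, adjusted p = 0.0237), 1 of 6 members beside 4.82% of all genes. It was higher than at 2 days by 1.53 at 20 days (SE 0.29, adjusted p = 0.0143) and by 1.43 at 30 days (adjusted p = 0.0104). Across the 12 rats the log2 levels of both muscles ran together (Pearson r = 0.895, a description of muscles that share an animal and a time point), while for Trim63 r was 0.364 and for Klf15 -0.065.

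**Figure D3:**
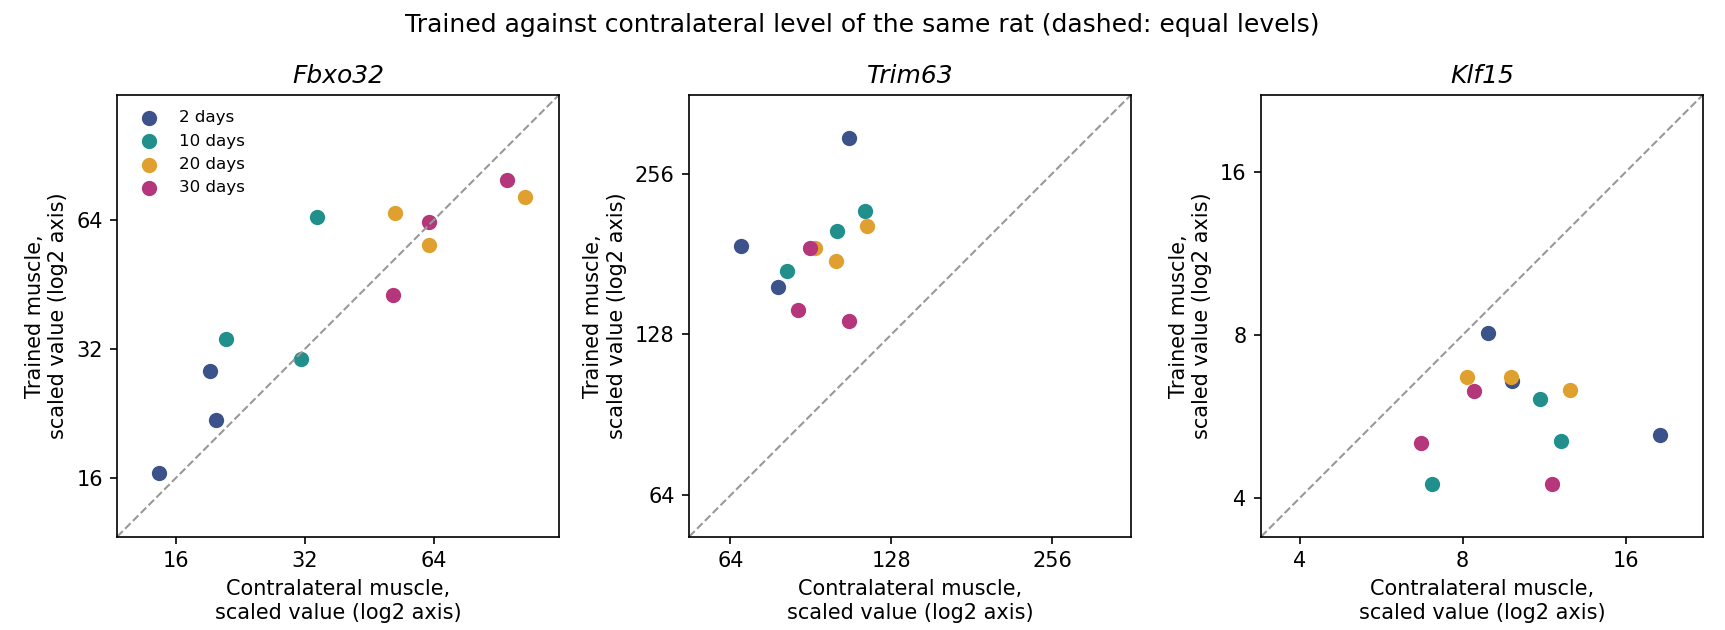
Level in the trained muscle (vertical axis) against that in the contralateral muscle of the same rat (horizontal axis), both on log2 axes in scaled TPM-type values, with colours for days of training and a dashed line of equal levels. Fbxo32 lies along the line and is ordered by time, all 12 Trim63 points lie above the line and all 12 Klf15 points below it.

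In contralateral muscles 7 genes in all passed the F test among the times, and their names were looked up after the values were seen. Beside Fbxo32 they included the clock genes Dbp, Ciart and Arntl, the pyruvate dehydrogenase kinase Pdk4, itself a FoxO target, and AABR07044759.1. The contralateral mean of Dbp was 40.5 at 2 days and 5.49, 8.77 and 7.03 at 10, 20 and 30 days (adjusted p = 0.00761). That of Arntl, whose product drives Dbp, was 3.09 at 2 days and 12.2, 9.36 and 10.5 later (adjusted p = 0.0209). The contralateral mean of Pdk4 was 65.9, 249.4, 145.5 and 142.5 (adjusted p = 0.0170). The contralateral mean of Fbxo32 was 17.9, 28.8, 73.0 and 69.6 at the same times. The part of clock phase in the level of Fbxo32 was not tested.

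The order of contralateral levels, which can be compared per transcript length, was Trim63 (median 96.6, range 67.0 to 115.3, n = 12), Fbxo32 (42.8, 14.6 to 104.6), Klf15 (9.85, 6.71 to 18.5), Fbxo30 (4.47, 3.65 to 5.30), Foxo1 (4.46, 2.48 to 7.83) and Foxo3 (2.37, 0.839 to 3.25). Trim63 and Fbxo32 overlapped, as did Fbxo32 and Klf15, and Fbxo30 and Foxo1 did not differ beyond their spread. Klf15 lay above all Fbxo30 values, and Foxo1 and Foxo3 overlapped.

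The list of other FoxO factors held Foxo4 and Foxo6. Foxo4 was the most abundant of the family, with a mean value of 77.6 over all muscles, and fell in the trained muscle of all 12 rats, with differences of -0.66, -0.53, -0.71 and -0.62 at 2, 10, 20 and 30 days (SE 0.13, adjusted p by limma 0.00324, 0.0122, 0.00270 and 0.00908). Its mean was 104.5 in contralateral and 66.0 in trained muscles at 2 days, and 89.4 and 57.4 at 30 days. Foxo6 was low (mean 1.40) and passed at 20 days only (-0.75, adjusted p = 0.0360). Both were thus lower at 20 days and 1 of 2 at the other times, beside 9.80%, 8.0%, 7.42% and 5.09% of all genes at the 4 times. The list medians were -0.54, -0.34, -0.73 and -0.51. With values as deposited Foxo4 did not pass at 2 days (adjusted p = 0.0762) or 10 days (adjusted p = 0.139).

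Among regulators of FoxO, Irs2 rose at every time. Irs2, the insulin receptor substrate that feeds Akt and is itself a FoxO target, was higher by 2.92, 2.78, 2.86 and 2.74 at 2, 10, 20 and 30 days (SE 0.23, highest adjusted p by limma 1.14e-05), from a mean of 4.12 to 36.4 at 2 days. Of 16 kinases, phosphatases and receptors tested, 3, 3, 3 and 2 were higher and 1, 1, 2 and 0 lower at the 4 times, beside 11.8%, 12.1%, 9.94% and 7.21% of all genes higher and 9.80%, 8.0%, 7.42% and 5.09% lower, with list medians of 0.060, 0.032, -0.25 and -0.17. The lower ones, named after their values were seen, were the kinase genes Akt2 at 2, 10 and 20 days (-0.51, -0.46 and -0.38) and Pdpk1 at 20 days (-0.53). Igf1, the growth factor, rose at 2, 20 and 30 days (0.57, 0.80 and 0.75), the kinase gene Prkaa1 (an AMPK subunit) at 2 and 10 days (0.81 and 0.69), and Akt1 at 20 days (0.55). With values as deposited Akt1 did not pass at 20 days (0.46, limma, adjusted p = 0.0501). Of 6 cofactors tested, Ppargc1a, a coactivator of mitochondrial genes that restrains FoxO, rose at all 4 times (0.82, 1.88, 0.90 and 1.23), and Smad3, a transducer of myostatin signals, fell at 10, 20 and 30 days (-0.62, -0.59 and -0.51). The medians of that list were -0.040, -0.16, -0.23 and -0.047.

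Known FoxO target genes were found among both higher and lower genes. Differences of listed genes given here and below passed an adjusted p of 0.05 in the same limma fit unless stated, with SEs from 0.11 to 0.37. Of 23 tested, 5 were higher and 6 lower at 2 days, 2 and 5 at 10 days, 2 and 4 at 20 days, and 2 and 1 at 30 days, with list medians of -0.022, -0.22, -0.17 and -0.073 beside -0.017, -0.026, -0.017 and -0.011 over all genes. Of all genes 11.8%, 12.1%, 9.94% and 7.21% were higher and 9.80%, 8.0%, 7.42% and 5.09% lower, so that the counts at 30 days lay near those shares. The autophagy gene Gabarapl1 rose at every time (0.62, 0.87, 0.71 and 0.65) and Txnip, which restrains glucose uptake, fell at 10, 20 and 30 days (-0.84, -1.10 and -0.92). With values as deposited Gabarapl1 did not pass at 30 days (adjusted p = 0.0692), nor Txnip at 10 days (adjusted p = 0.0687). At 2 days the leading genes after Irs2 were the growth arrest gene Gadd45a (1.91, adjusted p = 0.00263) and the proteasome subunit Psmd11 (1.43, adjusted p = 5.14e-05). The counts of lower genes depended on scaling: with values as deposited 2, 0, 3 and 1 were lower in place of 6, 5, 4 and 1.

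Among 17 genes of the glucocorticoid receptor list tested, 1 was higher and 3 lower at 2 days, and 0 were higher and 6, 3 and 3 lower at 10, 20 and 30 days. The share of all genes lower was 9.80%, 8.0%, 7.42% and 5.09% at the 4 times, and the share higher 11.8%, 12.1%, 9.94% and 7.21%. Glul, glutamine synthetase, fell with differences of -0.47, -1.44, -1.48 and -1.44 at the 4 times (SE 0.12, highest adjusted p by limma 0.0168), from a mean of 340.7 to 125.7 at 10 days. Fkbp5, a chaperone of the receptor, fell at 2 and 10 days (-0.50 and -0.89) and the clock gene Per1 at 2 and 10 days (-0.49 and -0.51). The transcription factor Cebpd fell at 20 and 30 days (-1.16 and -1.29), and Angptl4, an inhibitor of lipoprotein lipase, at 10, 20 and 30 days (-0.89, -0.75 and -0.87). The metallothionein Mt1 rose at 2 days (1.30). The list medians were -0.21, -0.12, -0.085 and -0.23, and with values as deposited 0, 4, 3 and 3 genes were lower.

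Of 9 metabolic genes linked to Klf15 and tested, 7, 4, 3 and 2 were lower at 2, 10, 20 and 30 days, beside 9.80%, 8.0%, 7.42% and 5.09% of all genes. In the same order 0, 0, 1 and 0 were higher, beside 11.8%, 12.1%, 9.94% and 7.21% of all genes. The list medians were -0.61, -0.42, -0.12 and -0.032. Bcat2, the mitochondrial aminotransferase of branched-chain amino acids, fell at every time (-1.004, -1.31, -1.26 and -1.36, SE 0.21, highest adjusted p by limma 0.00359), and its mean went from 35.9 to 13.3 at 30 days. The alanine aminotransferase Gpt2 fell at every time (-0.61, -1.47, -1.47 and -1.25), and its relative Gpt at 2 days (-0.96). Bckdhb, a subunit of the branched-chain ketoacid dehydrogenase, fell at 2 and 10 days (-0.55 and -0.59), and Prodh1, proline dehydrogenase, at 2 and 20 days (-0.71 and -0.73). With values as deposited 4, 3, 3 and 2 genes were lower.

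Of 20 other ubiquitin ligases linked to wasting and tested, 2 were higher and 3 lower at 2 days, 0 and 3 at 10 days, 1 and 3 at 20 days, and 1 and 1 at 30 days, beside shares of all genes higher (11.8%, 12.1%, 9.94% and 7.21%) and lower (9.80%, 8.0%, 7.42% and 5.09%), with list medians of -0.16, -0.19, -0.29 and -0.17. The counts of higher genes lay below the share of all genes at each time. With values as deposited 0, 0, 2 and 1 were lower, and at 20 days neither Nedd4l (adjusted p = 0.151) nor Mdm2 (adjusted p = 0.0519) passed by limma. Cblb, a ligase that acts on Irs1, rose at 2 days (0.77), and Asb2 fell at 2, 10 and 30 days (-0.70, -0.56 and -0.69). Mul1, a mitochondrial ligase, fell at 2 and 10 days (-0.57 and -0.52), Wwp1 at 10 days (-0.50), and Mdm2 at 20 days (-0.46). Nedd4l rose at 20 and 30 days (0.43 and 0.73). In the core of the cullin complex that Fbxo32 and Fbxo30 join, 6 genes were tested. Cand1, an exchange factor of that complex, was higher at 2 and 30 days (0.41 and 0.50), and the scaffold Cul1 lower at 10 and 20 days (-0.38 and -0.55), with list medians of -0.13, -0.11, 0.12 and 0.13. Cand1 at 30 days (adjusted p = 0.104) and Cul1 at 10 days (adjusted p = 0.228) did not pass with values as deposited.

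Genes that respond to denervation, a state in which Trim63 and Fbxo32 are known to rise, were also listed. Of 7 tested, 4 were higher at 2 days, 2 at 10 days and 0 at 20 and at 30 days, beside 11.8%, 12.1%, 9.94% and 7.21% of all genes. At each time 0 were lower, beside 9.80%, 8.0%, 7.42% and 5.09% of all genes. The list medians were 0.97, 0.50, 0.11 and -0.010. At 2 days these included Runx1 (2.10, adjusted p = 4.96e-04), Gadd45a, which the FoxO list shares, and the myogenic factor Myog (1.60, adjusted p = 0.00357). At 10 days they were Runx1 (1.14) and the acetylcholine receptor subunit Chrnd (1.06). At 20 and 30 days Gadd45a had values of -0.27 and 0.046 and Myog of -0.26 and -0.27.

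Of 18 clock genes tested, 3, 5, 4 and 3 were higher and 5, 3, 3 and 1 lower at the 4 times, beside 11.8%, 12.1%, 9.94% and 7.21% of all genes higher and 9.80%, 8.0%, 7.42% and 5.09% lower, with list medians of -0.14, -0.079, -0.016 and 0.14. Ciart, a repressor of the clock, rose by 1.57, 2.88, 4.28 and 3.35, and Dbp, an output factor, was lower at 2 days (-1.02) and higher later (0.95, 0.94 and 0.68). At 2 days the repressor Nr1d1 fell (-1.13), and Hlf fell at 20 and 30 days (-0.65 and -1.10). Dbp at 30 days (0.56, adjusted p = 0.127) and Hlf at 20 days (adjusted p = 0.0556) did not pass with values as deposited.

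The genes whose 12 paired differences ran most like those of each member, among 3841 genes with a mean value of at least 10, were found by Pearson correlation as a description. They are the highest values of a search over 3841 genes with 12 differences each. Whether they exceed what unrelated genes would reach was not tested. For Fbxo32 they were Ddi2, Fbxl17 and Nbr1 (r = 0.830, 0.815 and 0.791), and for Trim63 Yars1, Tor1aip1 and Nln (0.853, 0.852 and 0.816). For Fbxo30 they included Klhl9 and Ddx5 (0.760 and 0.756). For Foxo1 they were Nr3c1, the glucocorticoid receptor, Hspa9 and Ddx5 (0.872, 0.854 and 0.838), for Foxo3 Tm9sf3, Sobp and Actr2 (0.816, 0.788 and 0.768), and for Klf15 Psme3ip1, Plpp7 and Ucp3 (0.884, 0.870 and 0.845). Within the members the closest was Fbxo30 with Foxo1 (0.735), whereas Fbxo32 and Trim63 gave 0.548.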

How the data were processed

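Poly-A libraries of 24 muscles were trimmed, aligned by the authors with STAR in Partek Flow to Rnor_6.0 and quantified to Ensembl transcripts. The deposited transcript values are TPM-type, scaled by the authors for length and to 1 total per sample, so a count model could not be fitted. Another deposited table holds a gene-level signal for 4635 genes, among them Fbxo32, Trim63 and Klf15. The remaining table holds the authors' own p-values, false discovery rates, ratios and group means for their comparisons and was not used.

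Each library was scaled by its median-of-ratios factor (0.778 to 1.14, from 16230 transcripts above 0 in all samples) and summed per gene symbol. Genes with at least 1 in at least 3 samples (11196) entered limma 3.58.1 in R 4.3.3 on log2(value + 1), with the rat as a block and a trained term per time (8 residual degrees of freedom). P-values were Benjamini-Hochberg adjusted over all genes, with a threshold of 0.05. An F test compared the 4 responses, and another the 12 contralateral muscles. Both muscles of a number come from the same rat, whose deviations from the group means correlated (median r = 0.174, above 0 in 12 of 12 rats). No pair of libraries held identical values. The fit was tested on simulated data.

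All 6 members were described. From each list, at most 3 genes past the threshold with the largest difference were named per time, or the 2 most abundant where none passed, and a few genes that met these rules are not reported here. The members and lists were chosen with earlier results of these data known. The mean over the 4 times, the trained groups and the gene-level fit were read after the data were seen. Alternatives were scaling, pseudocount, filter, transcript choice, variance trend, pairing and leaving out each rat.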

Additional observations from a re-analysis of the deposited data

Results flagged for a closer look

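By the limma F test of the difference among the responses, 0 of 6 members (1 of 6 at unadjusted p under 0.05) and 6 of 117 other listed genes differed among the 4 times, beside 1.14% of all genes. Arntl (adjusted p = 0.0214) was higher in 3 of 3 trained muscles at 2 days (0.87) and lower in 3 of 3 at 10, 20 and 30 days (-0.47, -0.55 and -0.53). Of these later differences only that at 20 days passed (limma, adjusted p = 0.0618, 0.0376 and 0.0533 in the same order). Acaa2, an enzyme of fatty acid oxidation (adjusted p = 0.0444), was lower in 3 of 3 at 2 and 10 days (-0.71 and -0.36) and higher in 3 of 3 at 20 and 30 days (0.23 and 0.27). Only its day 2 difference passed (limma, adjusted p = 0.00258, 0.0843, 0.269 and 0.236 at 2, 10, 20 and 30 days). Dbp (adjusted p = 0.00248) was lower in 3 of 3 trained muscles at 2 days and higher in 3 of 3 at 10, 20 and 30 days. Its mean at 2, 10, 20 and 30 days was 40.5, 5.49, 8.77 and 7.03 in contralateral muscles and 19.7, 11.6, 17.7 and 11.8 in trained muscles. That of Arntl was 3.09, 12.2, 9.36 and 10.5 against 6.19, 8.54, 6.11 and 7.06. Dbp, Arntl and Ciart were among the 7 genes that differed among contralateral muscles. The part of the contralateral level in these differences was not tested. Ciart (adjusted p = 0.0279) was higher in 3 of 3 at each time, by 1.57 at 2 days and 4.28 at 20 days. Glul (adjusted p = 0.0260) was lower in 3 of 3 at each time, with differences of -0.47 at 2 days and -1.48 at 20 days. Psmd11 (adjusted p = 0.0214) was 1.43 higher at 2 days and 0.26, 0.061 and 0.015 at 10, 20 and 30 days. Its differences after 2 days did not pass (limma, adjusted p = 0.279, 0.835 and 0.967 at 10, 20 and 30 days).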

How the results depend on the processing

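Values for the members kept their direction and side of the threshold in 738 of 804 cases. This count includes values that had not passed. It also includes removals of rats of another time, which leave the paired estimate of a time unchanged, so it does not measure how firm the calls were. When single rats were left out, the Klf15 day 2 call was lost in 6 of 12 removals and the Foxo3 mean over the 4 times in 7 of 12. With no replicate block and 12 pooled contralateral muscles, Fbxo32 turned to -0.83, 0.70 and 0.60 at 2, 20 and 30 days, Per1 at 2 days to 0.19, Dbp at 2 days to 0.73 and Gadd45a at 30 days to -0.21, and 2304 genes passed at 30 days in place of 1377. With values as deposited, Gadd45a at 30 days turned to -0.077 and 838 genes passed at 30 days. That scaling moved the median of all genes from -0.017 to 0.089, from -0.026 to 0.043, from -0.017 to -0.087 and from -0.011 to -0.11 at the 4 times, and the share of calls that were higher from 54.6%, 60.2%, 57.3% and 58.6% to 79.1%, 77.8%, 51.9% and 41.9%. Genes whose response differed among times numbered 128, and 30 with a pseudocount of 0.1, 69 without the filter, 193 with an intensity trend and 540 among trained groups alone. Genes that differed among contralateral muscles numbered 7, and 4 and 2 with that pseudocount and without the filter. The causes were not tested.

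Leaving out 1 rat gave 968 to 2467 calls at 2 days, 1226 to 2288 at 10 days, 967 to 1989 at 20 days and 581 to 1416 at 30 days, 20 to 343 for the difference among responses and 0 to 12 for contralateral muscles. Single rats turned values that had not passed: Foxo3 at 2 days ran from -0.31 to 0.054, Foxo1 at 2 days from -0.41 to 0.049, Fbxo30 at 10 days from -0.25 to 0.13 and at 20 days from -0.20 to 0.34, Fbxo32 at 20 days from -0.34 to 0.097, and Gadd45a at 20 days from -0.50 to 0.12 and at 30 days from -0.10 to 0.24. By limma without the pairing, Foxo1 lost its day 10 call against pooled (adjusted p = 0.173) and time-matched muscles (adjusted p = 0.116). Klf15 passed at 20 and 30 days against pooled muscles (adjusted p = 0.0427 and 0.00252). Foxo3 lost its mean over the 4 times (adjusted p = 0.124 pooled and 0.132 time-matched). Among the trained groups alone, Fbxo32 differed among the times (limma F test, adjusted p = 0.0237). The depth of each library cannot be read from the deposited values, and the precision rests on 3 rats per time.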
